A study of Mus musculus with 8 samples.

Results

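The genes described here encode the collagen IV network of the basement membrane and the proteins that link it to its neighbours. They are the collagen IV chains Col4a1, Col4a2, Col4a5 and Col4a6, the nidogens Nid1 and Nid2, and the heparan sulfate proteoglycans perlecan (Hspg2) and agrin (Agrn). They were taken by symbol, and all 8 were found among the 23432 gene symbols counted in each library. RNA sequencing covered mouse skin epithelium in 4 groups of 2 libraries. E16.5 control and E16.5 MOF cKO (MOF fl/fl with Krt14-Cre) were epithelial cells of back skin, sorted for the K14-H2BGFP reporter of both genotypes. P0.5 control and P0.5 Kansl1 cKO (Kansl1 fl/fl with Krt14-Cre) were newborn epidermis, peeled from the dermis after dispase and not sorted. MOF, encoded by Kat8, is the acetyltransferase of histone H4 lysine 16, and KANSL1 is a subunit of the NSL complex in which MOF also works. Krt14-Cre acts in Krt14-expressing epithelium and in the cells derived from it, so fibroblasts, vessels and immune cells keep both genes. Controls carried the label Control and, by the methods of the study, were wildtype or heterozygous littermates, of both sexes and of mixed C57Bl/6J and CD-1 background.

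The basement membrane is the sheet of matrix on which basal keratinocytes sit. Collagen IV chains assemble into trimers inside the cell and into a network outside it, in which the chains of Col4a1 and Col4a2 form the trimer found in nearly every tissue and the chains of Col4a5 and Col4a6 form a trimer found beneath the epidermis. Nidogens bind laminin and collagen IV and so bridge both networks, and perlecan and agrin carry heparan sulfate chains that hold growth factors and bind laminin. In skin, keratinocytes and dermal fibroblasts both make basement membrane proteins.

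The collagen IV chain genes lie in pairs that face away from each other. In mm10, Col4a1 occupies chr8:11198423-11312826 on the minus strand and Col4a2 chr8:11312805-11449287 on the plus strand, so their annotated 5' ends overlap by 22 bases. Col4a6 occupies chrX:141165403-141474076 on the minus strand and Col4a5 chrX:141475385-141689234 on the plus strand. Nid1 lies at chr13:13437551-13512269 and Nid2 at chr14:19751265-19811787, both on the plus strand, and the annotated Nid2 gene shares 437 bases with Rtraf on the other strand. Hspg2 lies at chr4:137468769-137570630 on the plus strand and Agrn at chr4:156165290-156197488 on the minus strand. All 8 are protein-coding in GENCODE M21.

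The promoters of the collagen pairs are shown because the pairs behaved differently in the libraries. The ratio within the first pair stayed steady, while Col4a6 fell further than Col4a5 in MOF cKO. Each window runs from 250 bases before to 50 bases after the RefSeq start (GRCm38.p6, the mm10 assembly) and is written 5' to 3' on the gene's own strand. Windows were found for 7 of the 8 genes. The RefSeq starts of Col4a1 and Col4a2 lie 21 bases apart, and the 78 bases that both windows hold (chr8:11312777-11312854) are in capitals, read from opposite strands.
Col4a1, chr8:11312777-11313076, minus strand: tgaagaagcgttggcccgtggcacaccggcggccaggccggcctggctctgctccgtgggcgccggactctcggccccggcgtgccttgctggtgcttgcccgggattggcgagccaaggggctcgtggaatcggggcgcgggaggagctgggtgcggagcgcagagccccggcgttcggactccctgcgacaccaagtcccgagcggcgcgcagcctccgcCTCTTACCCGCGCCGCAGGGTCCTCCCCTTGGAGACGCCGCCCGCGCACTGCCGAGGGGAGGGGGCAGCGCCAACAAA
Col4a2, chr8:11312555-11312854, plus strand: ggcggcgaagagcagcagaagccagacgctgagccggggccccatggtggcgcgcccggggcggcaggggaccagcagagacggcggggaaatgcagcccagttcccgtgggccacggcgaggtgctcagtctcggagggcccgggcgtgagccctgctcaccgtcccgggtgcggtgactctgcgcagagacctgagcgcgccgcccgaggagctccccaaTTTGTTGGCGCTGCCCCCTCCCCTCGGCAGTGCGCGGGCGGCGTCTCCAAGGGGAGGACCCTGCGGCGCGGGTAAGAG
The RefSeq starts of Col4a5 and Col4a6 lie 1343 bases apart and their windows share no base. Capitals mark GGGCGG (the GC box bound by SP1 family factors) or CCAAT, on either strand.
Col4a5, chrX:141475169-141475468, plus strand: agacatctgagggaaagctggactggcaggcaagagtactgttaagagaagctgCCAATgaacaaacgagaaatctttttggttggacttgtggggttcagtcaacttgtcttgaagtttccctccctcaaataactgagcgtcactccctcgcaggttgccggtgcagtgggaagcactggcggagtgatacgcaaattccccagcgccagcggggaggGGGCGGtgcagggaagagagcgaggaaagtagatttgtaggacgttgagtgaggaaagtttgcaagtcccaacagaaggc
Col4a6, chrX:141474027-141474326, minus strand: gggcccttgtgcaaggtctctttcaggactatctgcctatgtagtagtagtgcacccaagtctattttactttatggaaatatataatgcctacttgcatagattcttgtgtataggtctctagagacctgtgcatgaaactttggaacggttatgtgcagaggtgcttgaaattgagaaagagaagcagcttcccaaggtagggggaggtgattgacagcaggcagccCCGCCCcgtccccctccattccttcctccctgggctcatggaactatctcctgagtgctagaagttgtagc
On both strands, GGGCGG occurred in 35.7% and CCAAT in 37.4% of the 32851 RefSeq windows of this length. The Col4a6 window held 1 GGGCGG and no CCAAT, and the Col4a5 window held 1 of each. The sequence TATAAA, present in 13.6% of all windows, was in none of the windows found for these genes. G and C made up 48.3% of the Col4a6 window and 52.7% of the Col4a5 window, against a median of 52.7% over all windows, while the Col4a1 and Col4a2 windows reached 74% and 73.7%. Among all windows, Col4a6 lay at the 34.4th percentile of G and C content and Col4a5 at the 50.1st. Col4a1 and Col4a2 lay at the 95.6th and 95.2nd. The other windows were also above the middle, with Hspg2 at the 91.4th, Nid1 at the 81.7th and the Agrn windows at the 99.8th and 74.6th.

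Libraries held 22484018 to 27561688 gene counts at E16.5 and 9108709 to 19774643 at P0.5. CPM values are counts scaled to library size, within each experiment unless said otherwise. Kat8 stood at 14.4 and 14.7 CPM in the E16.5 controls and at 12.4 and 13.9 in MOF cKO, and Kansl1 at 40.7 and 48.2 in the P0.5 controls and at 31.4 and 30.6 in Kansl1 cKO. Counts over a whole gene include exons that the deletion leaves, so they check the labels only weakly. The epithelial label held, with 6 epithelial markers summing to 29554 to 36848 CPM at E16.5 and to 14887 to 16751 CPM at P0.5. Krt14, among them, was at 9690 to 12266 CPM at E16.5 and 4384 to 6069 CPM at P0.5. Fibroblast markers were also present. The summed level of 8 fibroblast genes was 918 and 1556 CPM in the E16.5 controls, 1548 and 2157 in MOF cKO, 1762 and 1096 in the P0.5 controls and 927 and 741 in Kansl1 cKO, with none of the 8 at 0 in any library. The 8 endothelial markers summed to 17.0 to 37.1 CPM at E16.5 and to 4.74 to 10.1 CPM at P0.5, where Emcn was at 0 in 3 libraries. Xist, transcribed from the inactive X chromosome of female cells, was at 1518 CPM in E16.5 control replicate 1 and at 9.99 to 12.0 CPM in the other 3 E16.5 libraries. At P0.5 it was at 1.23 CPM in control replicate 2 and at 371 to 427 CPM in the others. Ddx3y, a gene of the Y chromosome, was at 0.228 CPM in E16.5 control replicate 1 and 64.2 CPM in replicate 2, and at 0 and 117 CPM in P0.5 control replicates 1 and 2. The controls of each experiment thus came from separate animals. For the cKO groups the labels do not name animals. The study states that each RNA sequencing experiment used 2 pairs of samples, with littermate controls, without saying which libraries form a pair. In bulk RNA, fewer cells of a type and less RNA per cell cannot be told apart.

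Agrn was the most abundant of these transcripts per kilobase of exon in every group, and Nid2 had the lowest mean. In E16.5 control replicate 2, however, Nid2 was slightly above Nid1 (2.53 against 2.45 CPM per kilobase). On the scale of CPM per kilobase over all 8 libraries, Agrn averaged 172 ± 8.91 in E16.5 control (SD, n = 2), followed by Hspg2 at 76.0 ± 23.1, Col4a1 at 60.6 ± 12.8 and Col4a2 at 39.6 ± 13.0. Within each of these libraries the order was the same, but Hspg2 and Col4a1 overlapped between libraries. Below them stood Col4a5 at 22.5 ± 0.373 and Col4a6 at 11.3 ± 1.02, and Nid1 at 1.84 ± 0.865 and Nid2 at 1.57 ± 1.36 could not be ordered. Among 13723 genes of known length that passed the filter, Agrn was at the 98.8th percentile of E16.5 control and Nid2 at the 32.9th. The other collagen IV chain genes, Col4a3 and Col4a4, had at most 6 counts in any library, too few to test.

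**Figure D1:**
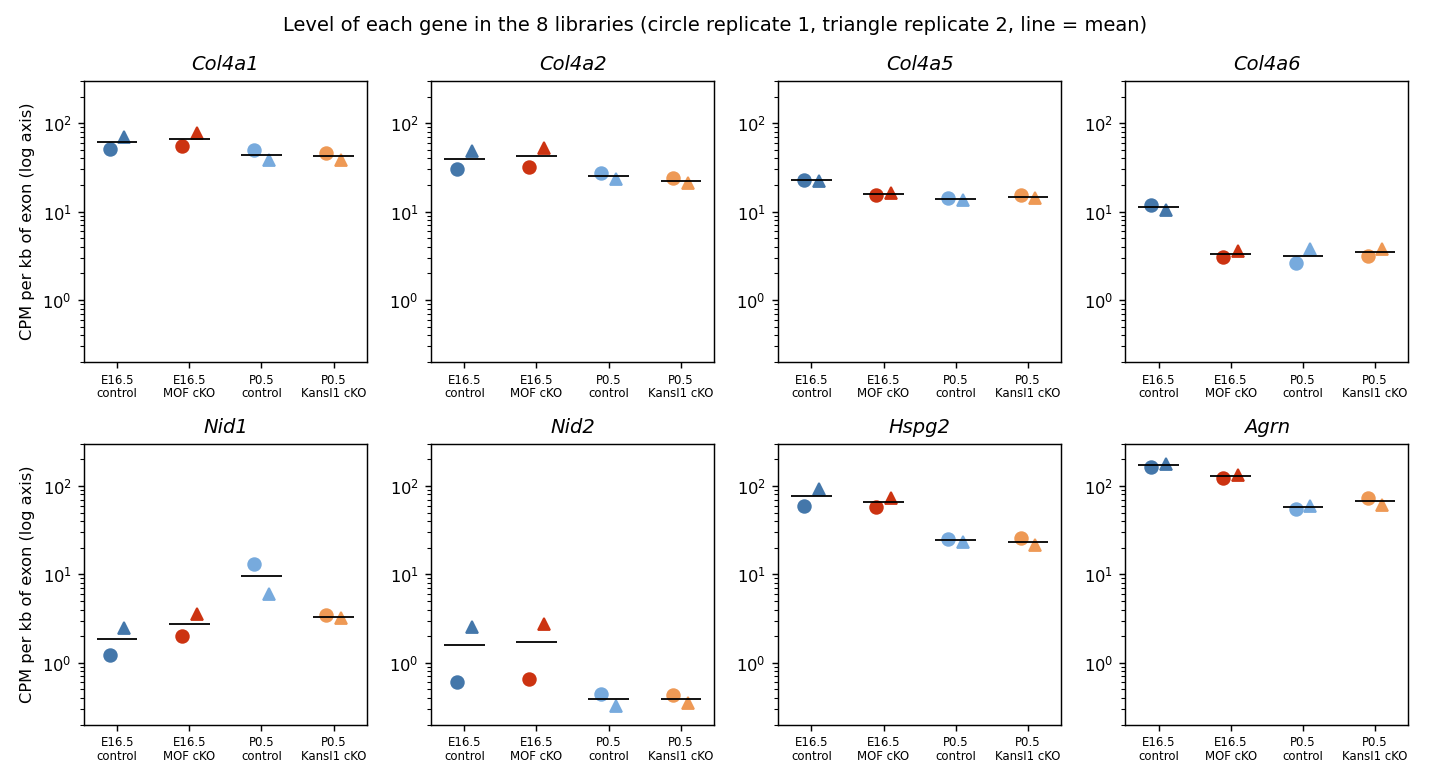
Level of each of the 8 genes in the 8 libraries, in CPM per kilobase of exon (log axis, 8-library scaling); circles are replicate 1, triangles replicate 2 and lines the mean of 2. Col4a6 drops from 12.0 and 10.6 in the E16.5 controls to 3.07 and 3.61 in MOF cKO, while Nid1 is highest in the P0.5 controls at 13.1 and 5.97.

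Col4a6 fell in MOF cKO, and none of the other 7 genes was called. Of the 8 genes, 1 was called lower and 0 higher in MOF cKO (edgeR, Benjamini-Hochberg adjusted p of 0.01 or lower and a change over 1.5-fold), where 9.59% of the 13956 genes tested were called lower and 10% higher. The median log2 fold change of the 8 was -0.06, and that of all genes tested -0.02. A share of 1 in 8 is near the background. With library size alone as scaling, which moved the median of all genes to -0.32, 2743 genes were called lower and 769 higher in place of 1338 and 1395, and Col4a5 and Agrn were then called lower as well.

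Col4a6, which encodes a chain of the epidermal collagen IV trimer, had 3192 and 2520 counts in the controls and 528 and 738 counts in MOF cKO. In CPM these were 104 and 91.0 against 26.5 and 31.3, so that both cKO libraries lay far under both controls. Col4a6 fell 3.38-fold (log2 fold change -1.75, SE 0.14, adjusted p = 0.000402, edgeR), with a 95% interval of -2.08 to -1.43. It was at the 5.98th percentile of the log2 fold changes of all genes tested. The value stayed between -1.88 and -1.65 when any 1 of the 4 libraries was left out, and each of these fits called it. Without E16.5 control replicate 1, the one library with high Xist, it was -1.66.

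Col4a5, whose chain partners that of Col4a6, was at 167 and 162 CPM in the controls and 112 and 117 CPM in MOF cKO. The 2 genotypes did not overlap, with a log2 fold change of -0.52 (SE 0.10, adjusted p = 0.00673, edgeR), but the change stayed under 1.5-fold and was not called. Col4a1 was at 419 and 562 CPM in the controls and 450 and 635 CPM in MOF cKO. Col4a2 was at 219 and 350 CPM in the controls and 228 and 381 CPM in MOF cKO. For both genes the genotypes overlapped, and within each genotype the library numbered 2 was the higher. Their log2 fold changes were 0.15 (95% interval -0.31 to 0.60) and 0.10 (-0.55 to 0.75), so a change of either gene as large as that of Col4a6 lay outside the interval.

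The ratio of Col4a6 to Col4a5, which does not depend on library scaling, shows the change within the pair. Per kilobase, Col4a6 stood at 0.526 and 0.474 of Col4a5 in the E16.5 controls and at 0.1997 and 0.225 in MOF cKO. The mean log2 ratio went from -1.002 ± 0.11 to -2.24 ± 0.12 (SD, n = 2), a difference of -1.24. An exact two-sided permutation test gave p = 0.333, the smallest that 2 against 2 libraries allow, and 0.667 after adjustment over the 8 ratio tests. The ratio of Col4a2 to Col4a1 was 0.590 and 0.701 in the controls and 0.571 and 0.678 in MOF cKO, a difference of -0.05 in log2 with groups that overlapped. Of all collagen IV chain transcripts counted per kilobase, Col4a5 and Col4a6 together made up 29.8% and 21.7% in the controls and 17.4% and 13.0% in MOF cKO. Col4a6 alone went from 10.3% and 6.98% to 2.90% and 2.39%.

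**Figure D2:**
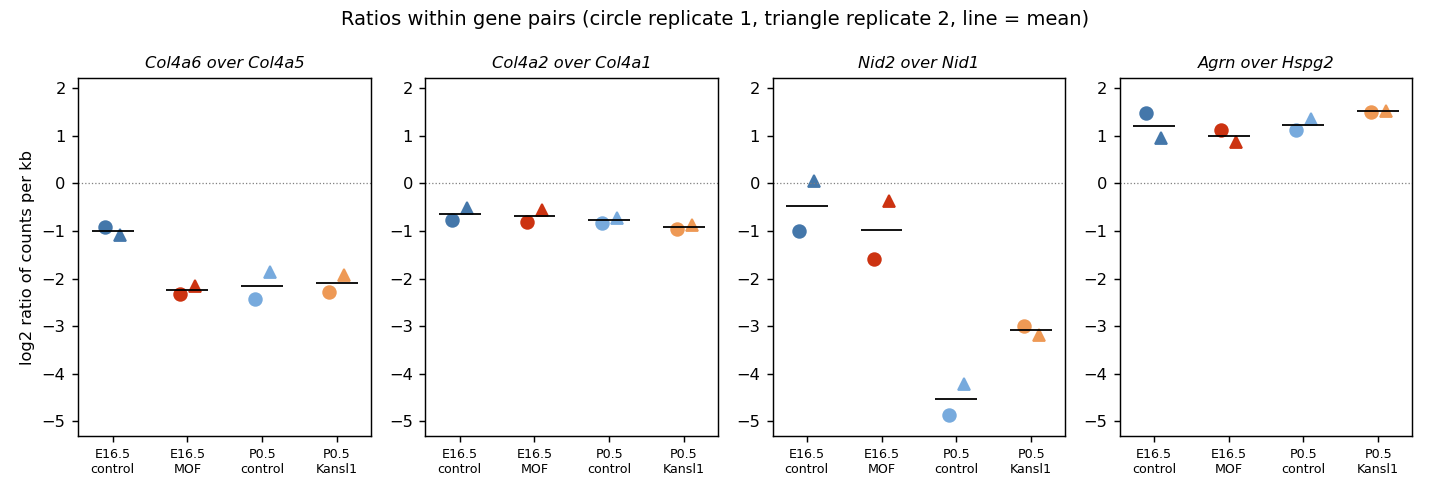
Log2 ratio of counts per kilobase within 4 pairs of genes in each library (circles replicate 1, triangles replicate 2, lines the mean of 2, dotted line equal levels). Col4a6 over Col4a5 is at -0.93 and -1.08 in the E16.5 controls and between -2.44 and -1.87 in the other 6 libraries, Col4a2 over Col4a1 stays between -0.95 and -0.51 throughout, and Nid2 over Nid1 is lowest in the P0.5 controls.

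Neither nidogen was called in MOF cKO by the main fit, which used no pairing. With the replicate number as a block in the fit, Nid1 was called higher (adjusted p = 0.00423, edgeR). The labels do not say which libraries form a pair. Nid1 was at 9.26 and 18.4 CPM in the controls and 15.0 and 26.8 CPM in MOF cKO, which overlapped. Its log2 fold change was 0.60 (SE 0.37, adjusted p = 0.238, edgeR), and leaving out E16.5 control replicate 2 gave 1.17 and a call. Nid2, the second nidogen, was at 3.42 and 14.2 CPM in the controls and 3.71 and 15.4 CPM in MOF cKO. The libraries numbered 2 thus held about the same excess of Nid2 over those numbered 1 in both genotypes, and the log2 fold change of 0.13 had an interval of -1.63 to 1.89. The value turned to -1.24 when MOF cKO replicate 2 was left out and to 1.48 when control replicate 2 was, so no direction can be given for Nid2. Fibroblast markers were also higher in the library numbered 2 of each genotype, as were 5 melanocyte markers (14.4 and 42.5 CPM in the controls, 16.4 and 64.2 CPM in MOF cKO) and 4 Schwann cell markers (4.79 and 17.6, 8.18 and 29.2 CPM). Their part in the levels of Col4a1, Col4a2, Nid1, Nid2 and Hspg2 was not tested.

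The proteoglycans differed in how well the genotypes separated. Agrn was at 1676 and 1790 CPM in the controls and 1252 and 1337 CPM in MOF cKO, without overlap. Its log2 fold change of -0.42 (SE 0.10, adjusted p = 0.0143, edgeR) missed both thresholds. Hspg2 was at 930 and 1429 CPM in the controls and 895 and 1123 CPM in MOF cKO, with a log2 fold change of -0.22 (95% interval -0.71 to 0.26). Hence both MOF cKO libraries lay under both controls for Col4a5, Col4a6 and Agrn, 3 of the 8 genes, where 37.7% of all genes tested did so, and 0 of the 8 lay above them, where 34.9% of all genes did.

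**Figure D3:**
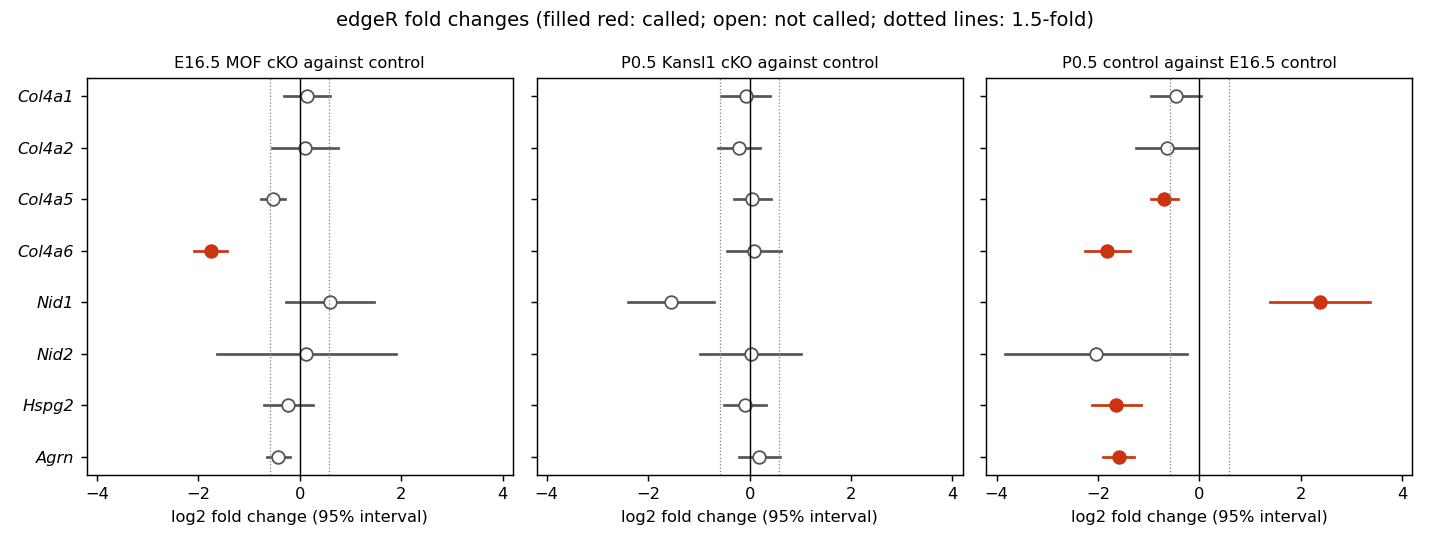
Log2 fold change with its 95% interval for each gene in 3 comparisons (edgeR; filled red called, open not called, dotted lines 1.5-fold). MOF cKO has 1 call, Col4a6 at -1.75, Kansl1 cKO has none, and the P0.5 controls differ from the E16.5 controls in 5 genes.

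Around these genes, basement membrane genes were called in both directions in MOF cKO. Of 18 tested genes for collagen processing and collagen IV crosslinking, 3 fell and 2 rose, with a median log2 fold change of 0.23. Of those called, the most changed were the lysyl hydroxylases Plod2 (1.42) and Plod1 (-1.02) and the prolyl hydroxylase gene P3h3 (-1.13, listed as Leprel2). Next came Mia3 (-0.80), which encodes a receptor for exporting collagen from the endoplasmic reticulum. Loxl2 (1.29) and Fkbp10 (0.87) changed more than Mia3 but were not called (adjusted p of 0.0195 and 0.0393, edgeR). Of 11 laminin chain genes, Lamb2 (-0.67) and Lamc1 (-0.70) fell and Lama4 (1.58) rose, and the median was 0.20. Of 12 receptor genes 0 were called lower and 3 higher, against 2 and 0 with library size alone. The integrin subunit gene Itgb1 (0.70), the collagen receptor gene Ddr1 (0.77) and the syndecan gene Sdc1 (0.81) rose, with a list median of 0.12. The largest change in this list was a fall, -1.85 for the integrin subunit gene Itga1, which was not called (adjusted p = 0.0259, edgeR). The counts rest in part on single libraries. Without MOF cKO replicate 1 the collagen processing genes gave 1 lower and 1 higher and the laminins 1 lower. Without control replicate 1 the collagen processing genes gave 1 higher and the receptors 1 lower, and without control replicate 2 the laminins gave 1 lower. With library size alone, 0 laminin genes and 1 collagen processing gene were called higher.

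The heparan sulfate chains of perlecan and agrin are built by enzymes whose genes were listed separately. Of 16 tested, 2 fell and 1 rose, with a median of -0.11, against 4 lower and 0 higher with library size alone. Without control replicate 1 or MOF cKO replicate 1, 2 were called higher. B4galt7, which adds a sugar of the linker between protein and chain, fell by 2.49 on the log2 scale, and the chain polymerase genes Ext2 (-1.16) and Ext1 (0.76) went in opposite directions. Of 15 other basement membrane genes, 5 fell and 2 rose, with a median of -0.25; without MOF cKO replicate 2, or with library size alone, 1 was called higher. The most changed were Tinagl1 (2.65) and the Fraser complex genes Frem1 (-2.24), Fras1 (-1.20) and Frem2 (-1.16). The share called was 27.8% for collagen processing, 27.3% for laminins, 25% for receptors, 18.8% for heparan sulfate synthesis and 46.7% for the other components, beside 19.6% of all genes tested.

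Cell layer markers moved in the same libraries. Of 6 suprabasal markers 5 rose, from a summed 4075 and 3305 CPM in the controls to 9058 and 9969 CPM in MOF cKO, and of 5 hair germ markers 3 fell, from 459 and 648 to 255 and 259 CPM. The 7 basal markers summed to 37350 and 35599 CPM in the controls and 31285 and 38462 CPM in MOF cKO, with 1 called lower. Of 8 macrophage markers 6 rose, from 19.3 and 44.4 to 94.8 and 124 CPM. Of 5 tested mural cell markers 2 rose (list median 1.72 in log2), and the 6 listed summed to 176 and 231 CPM in the controls and 316 and 305 CPM in MOF cKO. Of 8 fibroblast markers none was called, with a median of 1.07. The part of these cell types in the levels of Col4a6 and of the other 7 genes was not tested.

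Kansl1 cKO gave no call among the 8 genes, in a comparison in which 0% of the 13031 genes tested were called by edgeR. At an unadjusted p under 0.05, 15.7% of all genes passed, and Nid1 was the 1 gene of the 8 to do so. DESeq2 called 55 genes lower and 35 higher in this comparison, Nid1 among the former. Col4a6 was at 19.5 and 27.8 CPM in the controls and 23.0 and 27.4 CPM in Kansl1 cKO, which overlapped (log2 fold change 0.08, SE 0.22, 95% interval -0.45 to 0.61). Col4a5 was at 88.8 and 85.7 CPM in the controls and 94.1 and 87.3 CPM in Kansl1 cKO, and its interval ran from -0.30 to 0.41. A fall of Col4a6 of the size seen in MOF cKO was thus outside the interval in Kansl1 cKO. Col4a1 (log2 fold change -0.08), Col4a2 (-0.22), Nid2 (0.02) and Hspg2 (-0.09) overlapped between genotypes and were not called.

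Nid1 was the gene of the 8 with the largest difference in Kansl1 cKO. It was at 85.4 and 38.5 CPM in the controls and 21.7 and 20.3 CPM in Kansl1 cKO, so the genotypes did not overlap but the controls differed from each other more than the cKO libraries did from the lower control. The log2 fold change was -1.55 (SE 0.35, adjusted p = 0.197, edgeR), at the 1.40th percentile of all genes tested. It was -0.87 without P0.5 control replicate 1, -2.05 without control replicate 2 and -1.57 in DESeq2, whose adjusted p was 0.00504 where edgeR's ranged from 0.000163 to 0.197 over the other settings with all 4 libraries. The summed level of the fibroblast markers followed the same order over these 4 libraries. Dcn was higher in Kansl1 cKO (0.52), but the median log2 fold change of the fibroblast markers was -1.76, with 0 of 8 called. Melanocyte markers went the other way, from 452 and 494 CPM in the controls to 948 and 1084 CPM in Kansl1 cKO. So did macrophage markers, from 152 and 178 CPM to 239 and 259 CPM. The part of these cell types in the level of Nid1 was not tested. Both Kansl1 cKO libraries lay under both controls for Nid1 alone, where 22.7% of all genes did so, and above them for Agrn alone (474 and 515 against 609 and 522 CPM, log2 fold change 0.19), where 26% did so.

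**Figure D4:**
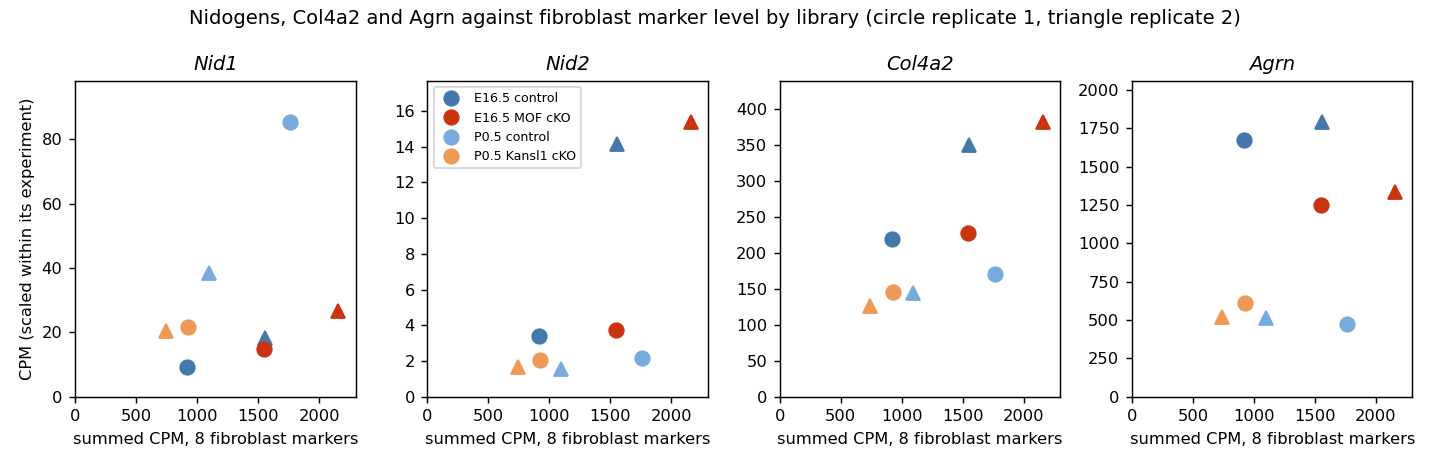
CPM of Nid1, Nid2, Col4a2 and Agrn against the summed CPM of 8 fibroblast markers in each library (scaled within each experiment; circles replicate 1, triangles replicate 2). In the P0.5 libraries Nid1 is highest, 85.4 CPM, where the fibroblast sum is highest, 1762 CPM; at E16.5 Nid2 is at 14.2 and 15.4 CPM in the replicates 2 and at 3.42 and 3.71 CPM in the replicates 1.

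The MOF and Kansl1 effects were compared in 1 fit of all 8 libraries. Col4a6 was the 1 gene of the 8 whose effects differed past the thresholds, by -1.86 (MOF effect minus Kansl1 effect in log2, SE 0.28, adjusted p = 0.00553, edgeR), where 2.92% of 14565 genes were called, 1.17% lower and 1.76% higher. With 1 library left out at a time its value ran from -2.17 to -1.64. The call was lost, with adjusted p of 0.0152 to 0.0230, without either E16.5 control, either MOF cKO library or P0.5 control replicate 1. Differences of -0.61 for Col4a5, 2.11 for Nid1 and -0.65 for Agrn had adjusted p of 0.0427, 0.0481 and 0.0484. With the replicate number as a block in the fit, Col4a6 was not called either (adjusted p = 0.0104, edgeR). Nid1 was called higher by DESeq2 (2.22) and in the fit with no filter on low counts (2.25). Stage, isolation and sequencer changed with the deleted gene and cannot be told apart from it.

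The level of Col4a6 in the P0.5 controls was close to that in MOF cKO at E16.5. On the 8-library scale, Col4a6 averaged 11.3 ± 1.02 CPM per kilobase in E16.5 control, 3.34 ± 0.386 in E16.5 MOF cKO, 3.18 ± 0.808 in P0.5 control and 3.46 ± 0.413 in P0.5 Kansl1 cKO (SD, n = 2). The last 3 did not differ beyond their spread. Between the control groups, 4 of the 8 genes were called lower at P0.5 and 1 higher, where 40.2% of the 14565 genes tested were called, 20.6% lower and 19.6% higher. The median log2 difference was -1.14 for the 8 genes and -0.13 for all genes. This comparison and those above share the control libraries.

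Col4a6 was lower at P0.5 by a log2 difference of -1.82 (SE 0.20, adjusted p = 8.35e-05, edgeR) and Col4a5 by -0.70 (SE 0.12, adjusted p = 0.000961). Col4a5 was no longer called without either E16.5 control or without MOF cKO replicate 2, nor by DESeq2 (-0.57, under 1.5-fold). Hspg2 and Agrn were lower by -1.64 and -1.59, from 76.0 ± 23.1 to 24.4 ± 1.24 and from 172 ± 8.91 to 57.1 ± 3.59 CPM per kilobase (SD, n = 2). Col4a1 (-0.46), Col4a2 (-0.64) and Nid2 (-2.05, SE 0.80) were not called. With library size alone Col4a1 (-0.81) and Col4a2 (-0.98) were called lower, and Nid2 (-1.94) was with every gene of at least 1 count. Nid1 went the other way, from 1.84 ± 0.865 to 9.55 ± 5.06 CPM per kilobase, a log2 difference of 2.37 (SE 0.44, adjusted p = 0.00152). Its call was lost without E16.5 control replicate 1 (1.97, adjusted p = 0.0110) and without P0.5 control replicate 1 (1.71, adjusted p = 0.0109).

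The gap between the nidogens was wider at P0.5. Nid2 stood at 0.496 and 1.03 of Nid1 per kilobase in the E16.5 controls and at 0.0342 and 0.0540 in the P0.5 controls, where only 19 and 24 Nid2 counts were found. In Kansl1 cKO the ratio was 0.126 and 0.110, above both P0.5 controls, a difference of 1.45 in log2 that the exact permutation test cannot pass (p = 0.333, adjusted 0.667). Agrn stood at 1.83 to 2.88 times Hspg2 per kilobase over all 8 libraries, the steadier of the linker ratios. Sorted cells at E16.5 and whole epidermis at P0.5 held different layers. Suprabasal markers were at 3305 and 4075 CPM in the E16.5 controls and 42658 and 76139 CPM in the P0.5 controls. Basal markers summed to 35599 and 37350 CPM in the E16.5 controls and 18517 and 19528 CPM in the P0.5 controls. Of these 7 markers 3 were called lower at P0.5, beside 20.6% of all genes tested. Other cells differed too: 7 of 8 macrophage, 5 of 5 melanocyte and 1 of 8 fibroblast markers were called higher at P0.5. Of all genes tested, 19.6% were. The part of these layers and cells in the levels of Nid1 and of the other 7 genes was not tested. Stage, sorting, the dispase step and the sequencer cannot be told apart in these differences.

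Over the 8 libraries, likeness was measured as the root mean square difference of log2 CPM after each gene was centred on its own mean, so that 0 means the same pattern. Col4a1 and Col4a2 were nearest to each other (0.14), as were Hspg2 and Agrn (0.24). Col4a5 was nearest to Col4a1 (0.31), Col4a6 to Col4a5 (0.54), Nid2 to Hspg2 (0.58) and Nid1 to Col4a1 (1.10). These are the nearest of the 7 other genes only. For Col4a6 alone all 14564 other genes were compared, and the nearest were Tube1 (0.10), Lrfn1 (0.17) and Acsf2 (0.18). Tube1, which encodes epsilon-tubulin, was at 12.9 and 12.3 CPM in the E16.5 controls, 3.57 and 3.90 in MOF cKO, 2.94 and 4.94 in the P0.5 controls and 4.05 and 4.06 in Kansl1 cKO. These libraries share stage and isolation within each experiment, and the likeness is given as a description.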

How the data were processed

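Counts per gene were made by the authors, who aligned poly(A)-selected, strand-specific paired reads to mm10 and deposited HTSeq counts for each library; the study's methods name HISAT2, the submitters' processing notes TopHat2, and the strand setting and annotation are not given in the sources used here. Rows that name no gene (21.1% to 26.0% of each library) were left out of totals and tests. Each experiment was fitted alone with edgeR 4.0.16 in R 4.3.3 (quasi-likelihood test, TMM factors, filterByExpr, Benjamini-Hochberg adjustment over all genes tested), and 1 fit of all 8 libraries served the contrasts between experiments. Genes were called, with the study's thresholds, at an adjusted p not above 0.01 combined with a change over 1.5-fold. Intervals cover 95%. CPM were TMM-scaled within each experiment; values per kilobase used all 8 libraries and the union exon length of GENCODE M21, which held 92.9% of the symbols. Ratios were compared by exact permutation. The scripts were tested on simulated counts. Alternatives were DESeq2 1.42.0, other scalings, no filter, other thresholds, a replicate block and leaving out each library. All 8 genes and at most 4 called genes of each other list, by size of change, were named. A few genes that were not called were also named. Members and lists were chosen with earlier results of these data known. Replicates of a group differed by more than counting noise. Sequences came from RefSeq.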

Additional observations from a re-analysis of the deposited data

Results flagged for a closer look

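Col4a6 stood out because its response differed between the experiments by a test of the difference itself: the MOF effect minus the Kansl1 effect was -1.86 on the log2 scale (SE 0.28, adjusted p = 0.00553, edgeR). Both MOF cKO libraries were under both of their controls, and the Kansl1 cKO libraries overlapped theirs. The call was lost with the replicate number as a block in the fit (adjusted p = 0.0104, edgeR). Leaving out either E16.5 control, either MOF cKO library or P0.5 control replicate 1 lost the call, with adjusted p of 0.0152 to 0.0230 (edgeR). Stage, isolation and sequencer cannot be told apart from the deleted gene.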

How the results depend on the processing

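With 2 libraries a group, the spread between libraries leaves Nid1 and Nid2 the least certain, and Nid2 had only 19 to 42 counts at P0.5. In MOF cKO, 3 genes were called lower with library size alone, which moved the median of all genes from -0.02 to -0.32, and 3 at an adjusted p of 0.05 with no fold threshold; 1 was called higher with the replicate block, and 0 to 1 with a library left out (1 without E16.5 control replicate 2). In Kansl1 cKO, 1 was called lower by DESeq2, 1 with every gene of at least 1 count, and 0 to 1 with a library left out (1 without either Kansl1 cKO library). For the difference of effects, 0 were called lower with the replicate block, 3 at an adjusted p of 0.05, and 0 to 1 with a library left out; 1 was called higher by DESeq2, with every gene and at an adjusted p of 0.05. In P0.5 against E16.5 control, 0 to 1 were called higher with a library left out. Same-numbered libraries deviated together with a correlation of 0.25 at E16.5 and -0.26 at P0.5. The study describes pairs of samples with littermate controls, but no label ties the replicate number to a pair. Among the calls, the replicate block added Nid1 in MOF cKO (0.61, adjusted p = 0.00423) and lost Col4a6 in the difference of effects (adjusted p = 0.0104). The crossed pairing at P0.5, chosen after seeing the data, called 1 gene of all tested lower and 0 higher, against 0 and 0. Signs turned for values that were not called. With library size alone, MOF cKO gave -0.16 for Col4a1, -0.20 for Col4a2 and -0.16 for Nid2, Kansl1 cKO gave -0.020 for Nid2, and the difference of effects gave -0.043 for Col4a1 and -0.15 for Nid2. In Kansl1 cKO Nid2 was -0.027 with upper-quartile factors and -0.0026 with the replicate block, which gave -0.038 for its difference of effects. With a library left out, MOF cKO ran from -0.12 to 0.38 for Col4a1, -0.32 to 0.48 for Col4a2, -1.24 to 1.48 for Nid2 and -0.50 to 0.12 for Hspg2. Kansl1 cKO ran from -0.28 to 0.11 for Col4a1, -0.033 to 0.11 for Col4a5, -0.14 to 0.34 for Col4a6, -0.26 to 0.26 for Nid2 and -0.25 to 0.034 for Hspg2. The difference of effects ran from -0.018 to 0.57 for Col4a1, -0.030 to 0.80 for Col4a2, -1.16 to 1.57 for Nid2 and -0.46 to 0.32 for Hspg2. The causes were not tested. With a library left out, calls over all genes also moved widely in Kansl1 cKO and in the difference of effects. A call gained or lost in such a fit cannot be read as particular to its gene. Over all genes, calls in MOF cKO were 1338 lower and 1395 higher, against 2743 and 769 with library size alone, 2197 and 1837 with every gene, 2263 and 1903 with the replicate block and 2758 and 2654 at an adjusted p of 0.05. In Kansl1 cKO, 0 and 0 became 117 and 73 with every gene, and 55 and 35 by DESeq2. For the difference of effects, 170 and 256 became 492 and 942 by DESeq2, 539 and 1112 with every gene, 40 and 91 with the replicate block and 985 and 1027 at an adjusted p of 0.05. Between the controls, 2997 lower and 2854 higher became 4375 and 2144 with library size alone.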
